A study of Homo sapiens with 4 samples.

Results

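The genes described here are 32 genes of ribosome biogenesis and RNA polymerase I, taken by symbol from a list of factors that make ribosomes. All 32 were present among the 16376 genes of the expression table, and all 32 passed the filter on low values (a 4-library mean of 1 FPKM or more). FPKM is a fragment number scaled by gene length and by library total. The lowest was UTP20, with a mean of 9.51 FPKM. They were measured by polyadenylated-RNA sequencing in LASCPC-01 cells treated with ketotifen (2 libraries) or with PBS (2 libraries), all labelled day 3 and genotype WT. The line models neuroendocrine prostate cancer and came from human prostate epithelial cells transformed by N-Myc and active AKT1, so all 4 libraries share these oncogenes. Ketotifen, an antihistamine, blocks H1 receptors and stabilises mast cells, and PBS is phosphate-buffered saline. The labels give no dose and do not say whether replicate libraries are separate cultures, so the p-values reflect a spread that may be technical only.

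Ribosome production starts in the nucleolus, where RNA polymerase I copies the ribosomal RNA genes into a long precursor. Small nucleolar ribonucleoprotein particles (snoRNPs) modify that precursor, box C/D particles by methylation and box H/ACA particles by pseudouridylation, and assembly factors fold and cut it into the small and large subunits. Many of these genes are known targets of the MYC family, and nucleolar size and ribosome output have long been linked to growth in prostate and other cancers. Ribosomal RNA was not measured in these libraries, so the values concern the messenger RNAs of the factors alone, relative to the library total.

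In the ketotifen libraries 27 of the 32 messenger RNAs averaged slightly above the PBS libraries, with a median change of 0.06 on the log2(FPKM + 1) scale against -0.02 over the 10586 genes tested. Voom, limma's count method, called 5 members on whole reads recovered from the FPKM steps. They were POLR1C, a subunit shared by RNA polymerases I and III, and NPM3, a nucleolar histone chaperone. The others were 3 large subunit assembly factors, BOP1, NOP16 and RRS1. Each of the 5 was higher, by a log2 change of 0.23 to 0.31 in limma and 0.23 to 0.32 in voom. The most abundant members, NPM1 and NCL, and the central polymerase I activator UBTF differed by no more than 0.05 in either direction. None of the 32 passed limma's test on log2(FPKM + 1) at an adjusted p under 0.05, a threshold that 13 of all tested genes (0.123%) passed, 1 of them higher (0.00945%) and 12 lower (0.113%). The smallest limma adjusted p among the members was 0.10. The 5 voom calls, all higher, are 15.6% of the members. Voom called 797 genes (7.53%), of which 391 were higher (3.69%) and 406 lower (3.84%), and with median ratio scaling 428 were higher and 256 lower.

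Counted without a threshold on adjusted p, 27 of the 32 members (84.4%) had a positive log2 change, which 44.3% of all tested genes had. At an unadjusted limma p under 0.05 there were 11 members (34.4%), all higher, against 20.4% of all tested genes in either direction, 10% higher and 10.3% lower. In 17 members (53.1%) both ketotifen libraries were above both PBS libraries, which held for 23.2% of all tested genes. This count was 13 with the libraries rescaled to an equal FPKM sum, 14 after quantile normalization and 21 with median ratio scaling. The share over all tested genes was not computed with these scalings, so 23.2% is no measure for them. In 2 members, NOP10 and WDR43 (6.25%), both ketotifen libraries were below both PBS libraries, against 31.2% of all tested genes. The other 13 members overlapped. With 2 libraries against 2, an exact permutation test of a single gene cannot go below p = 0.333, so none was made.

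**Figure D1:**
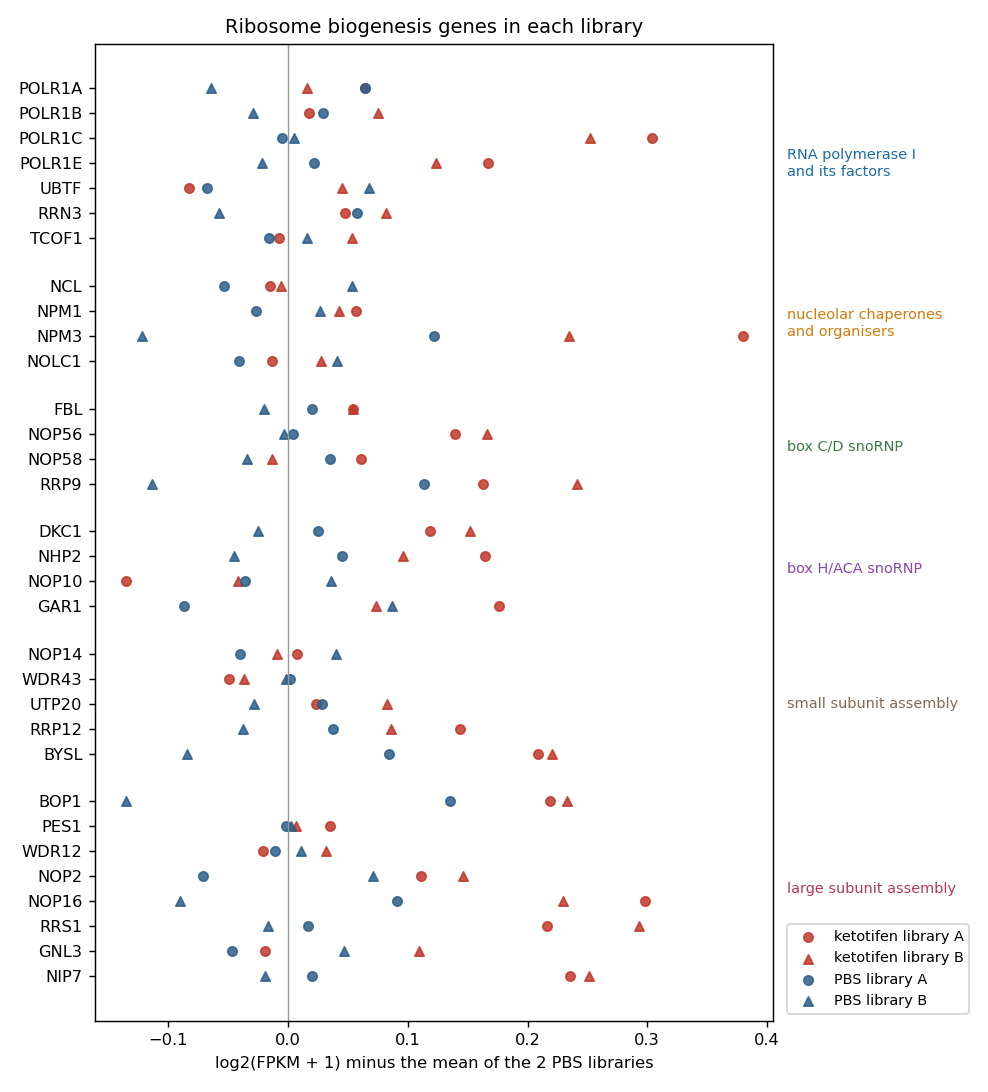
Each row is 1 gene and each point 1 library, placed by its log2(FPKM + 1) minus the mean of the 2 PBS libraries. Red points are ketotifen and blue points PBS, circles library A and triangles library B. NPM3, POLR1C, NOP16, RRS1 and NIP7 have both red points to the right, while NCL, UBTF, NOP14 and WDR12 have red and blue points mixed.

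Library totals were 36703851 and 33767082 for ketotifen libraries A and B, and 32873603 and 34756748 for PBS libraries A and B, with 938 to 81011 recovered reads per member and library. The PBS libraries were not equally far from the ketotifen libraries. Set against PBS library B alone, the ketotifen libraries differed in 1936 genes by limma, and against PBS library A alone in 421. Of the markers of this line, MYCN, which the line carries as its transforming oncogene, had 327 and 332 FPKM in ketotifen libraries, against 369.7 and 387 FPKM in PBS libraries (log2 change -0.20, limma adjusted p = 0.123, voom adjusted p = 0.0112). UCHL1 and NCAM1 were also present, while the neuroendocrine markers SYP, CHGA, CHGB, NEUROD1, FOXA2 and SCG2 were all under 0.6 FPKM. The luminal markers KLK3, KLK2 and FOLH1 were under 0.3 FPKM, whereas TMPRSS2 lay at 13 to 14.9 FPKM. Immune and endothelial markers were near 0, apart from CD68 at 2.77 to 3.97 FPKM, and among fibroblast markers COL1A1 lay at 1.95 to 2.75 FPKM. In bulk samples, fewer cells that make a transcript and less of it per cell cannot be told apart.

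Levels among the members ranged widely. NPM1 came first with a mean of 996 FPKM over the 4 libraries, followed by NCL with 499 and FBL with 292, and UTP20 came last. NPM1 alone ranked 41 and UTP20 5766 in the whole table. Of the 31 pairs of neighbours in this order, 17 had overlapping library ranges, so those ranks are not separated by more than the spread between libraries. The summed level of the 32 genes was 3796 and 3802 FPKM in ketotifen libraries, and 3611 and 3630.2 FPKM in PBS libraries. NPM1 and NCL together made up 39.9% and 39.6% of that sum in ketotifen libraries, and 40% and 41.8% in PBS libraries. Genes of low level, such as POLR1C, add little to that sum.

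**Figure D2:**
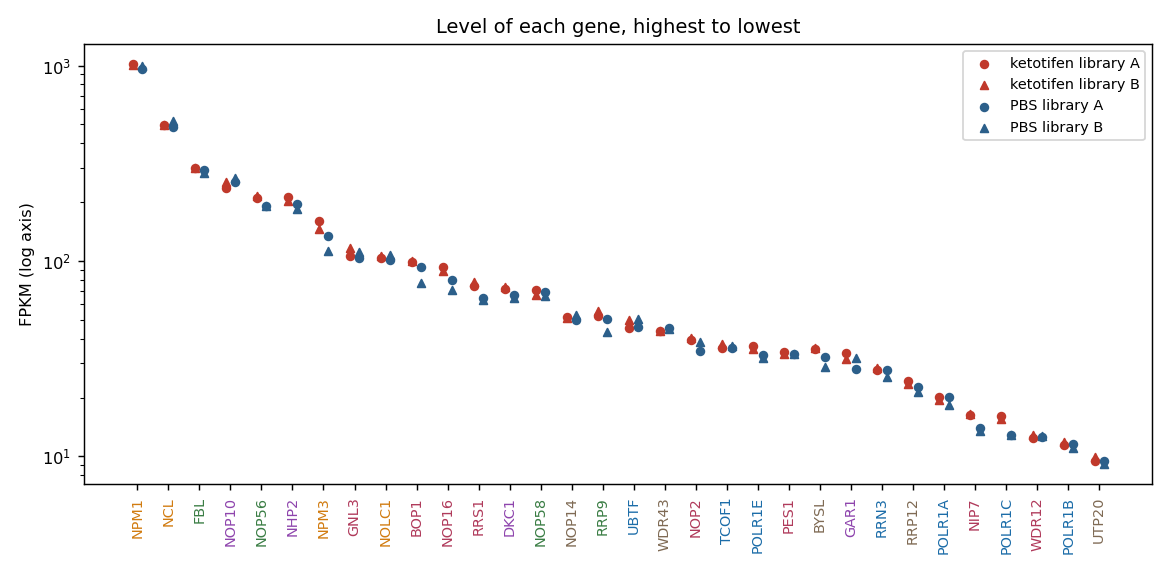
The level of each gene in FPKM on a log axis, ordered by the mean over the 4 libraries, with ketotifen in red left of PBS in blue. Gene names are coloured by role. Levels run from UTP20, with a mean of 9.51 FPKM, to NPM1, with 996 FPKM.

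Because MYC proteins bind the E-box CACGTG, the start regions of the members are shown where that motif occurs. RefSeq start regions (build GRCh38.p14, 250 bases before to 50 bases after each gene's start) were matched for 25 of the 32 members, as 31 regions, since a gene may have more than 1 start. RRP12, NOP58, RRS1, POLR1E, BOP1, NOLC1 and TCOF1 were not matched. The letters CACGTG, which read the same on both strands, were present in 11 of the 31 regions (35.5%), against 7.26% of all 35116 regions of that length. Over the 250 bases before the start alone, 2 of 31 (6.45%) held it, against 6.34% of all, so most of the matches lay just after the start: 8 of the 12 E-boxes began after it and 4 before it. The regions were not matched for base composition. The windows of 30 bases below are given on the gene's strand, with the E-box in capitals.
BYSL, chr6:41921515-41921544, plus strand, E-box 29 bases after the start: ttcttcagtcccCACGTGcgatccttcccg
FBL, chr19:39846356-39846385, minus strand, 7 after: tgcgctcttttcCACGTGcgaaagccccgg
GAR1, chr4:109815781-109815810, plus strand, 32 after: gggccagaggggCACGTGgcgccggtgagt
GNL3, chr3:52686026-52686055, plus strand, 7 after: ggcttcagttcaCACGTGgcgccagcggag
NOP10, chr15:34343289-34343318, minus strand, 170 before: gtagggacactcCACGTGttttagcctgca
NOP10, chr15:34343130-34343159, minus strand, 11 before: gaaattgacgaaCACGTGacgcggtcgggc
NOP14, chr4:2963374-2963403, minus strand, 16 after: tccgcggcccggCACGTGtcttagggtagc
NOP2, chr12:6568242-6568271, minus strand, 36 after: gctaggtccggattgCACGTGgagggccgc
PES1, chr22:30591880-30591909, minus strand, 14 after: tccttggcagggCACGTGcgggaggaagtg
RRP9, chr3:51941892-51941921, minus strand, 5 before: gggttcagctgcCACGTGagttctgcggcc
UTP20, chr12:101280083-101280112, plus strand, 10 before: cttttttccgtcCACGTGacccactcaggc
WDR43, chr2:28894658-28894687, plus strand, 4 after: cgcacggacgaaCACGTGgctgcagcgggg
These 11 genes had a median log2 change of 0.05 (range -0.09 to 0.21), and the 14 with a matched region and no E-box had 0.10 (range -0.02 to 0.31). BYSL and RRP9, at 0.21 and 0.20, hold the E-box, and so do NOP14 and PES1, at -8e-05 and 0.02. Both genes that were lower in both ketotifen libraries, NOP10 and WDR43, hold it too.

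Among the other motifs searched on both strands, the GC box GGGCGG was in 67.7% of the members' regions and 45% of all, and the ETS motif CCGGAAGT in 19.4% and 4.14%. The CCAAT box was in 38.7% and 34.6%. The NRF1 motif was found in DKC1 alone, 3.23% of the members' regions, against 1.24% of all. NPM3 holds a GC box and no E-box, CCAAT box, ETS or NRF1 motif. Its 250 bases before the start are shown on the gene's strand, with the GC box in capitals.
NPM3, chr10:101783447-101783696, minus strand: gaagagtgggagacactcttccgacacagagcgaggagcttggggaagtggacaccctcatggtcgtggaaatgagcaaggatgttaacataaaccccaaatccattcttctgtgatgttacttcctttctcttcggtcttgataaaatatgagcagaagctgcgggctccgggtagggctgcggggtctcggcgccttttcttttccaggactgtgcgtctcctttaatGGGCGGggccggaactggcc
A match of letters is a description of the sequence and not a binding site.

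The 7 genes of RNA polymerase I and its factors had a median log2 change of 0.04, and 6 were positive. POLR1C had 16.1 and 15.5 FPKM in ketotifen libraries, against 12.8 and 12.9 FPKM in PBS libraries. The PBS libraries nearly coincided and the groups were well separated. The log2 change was 0.28 ± 0.06 (SE; 95% interval 0.14 to 0.41), with a limma adjusted p of 0.10 and a voom adjusted p of 0.0349. POLR1C, on chromosome 6 (43509702 to 43562419, plus strand, GRCh38), overlaps exons of LRRC73, YIPF3 and XPO5 on the other strand. No source used here gives the strand setting of the counting, so its reads cannot be fully separated from theirs. YIPF3 itself was at 44.8 and 44.7 FPKM in ketotifen libraries, and 48.2 and 50.1 FPKM in PBS libraries, the opposite direction. XPO5, the exportin of microRNA precursors, was at 23.3 and 23.4 FPKM in ketotifen libraries, and 21.1 and 21.5 FPKM in PBS libraries, the same direction.

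The other polymerase I subunits moved less. POLR1E, which helps the enzyme start and elongate, had 36.6 and 35.5 FPKM in ketotifen libraries, and 33.0 and 32 FPKM in PBS libraries (log2 change 0.15, limma adjusted p = 0.195, voom adjusted p = 0.173). The largest subunit, POLR1A, had 20.1 and 19.4 FPKM in ketotifen libraries, and 20.1 and 18.3 FPKM in PBS libraries. The second largest, POLR1B, had 11.4 and 11.9 FPKM in ketotifen libraries, and 11.5 and 11 FPKM in PBS libraries. Both overlapped between groups, at a log2 change of 0.04 each. The ratio of POLR1C to POLR1A levels was 0.802 and 0.801 in ketotifen libraries, and 0.638 and 0.701 in PBS libraries. This difference in ratio was not tested. The ratio of POLR1A to POLR1B was 1.76 and 1.63 in ketotifen libraries, and 1.75 and 1.66 in PBS libraries.

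The polymerase I transcription factors overlapped. UBTF, which binds ribosomal DNA along its length and keeps it active, had 45.4 and 49.7 FPKM in ketotifen libraries, and 45.9 and 50.5 FPKM in PBS libraries. Library B was the higher of the pair in both groups, and the log2 change was -0.02 ± 0.07 (SE; 95% interval -0.18 to 0.14; limma adjusted p = 0.897, voom adjusted p = 0.867). The sign of so small a value is not fixed: it was 0.00074 with median ratio scaling. RRN3, the growth-regulated factor that brings the polymerase to the promoter, had 27.6 and 28.3 FPKM in ketotifen libraries, and 27.8 and 25.6 FPKM in PBS libraries. TCOF1, the treacle protein that links the polymerase to processing factors, had 35.9 and 37.5 FPKM in ketotifen libraries, and 35.7 and 36.5 FPKM in PBS libraries. Neither separated the groups, and their changes were 0.06 and 0.02. RRN3 also has 2 named pseudogene copies, whose reads could be split from it or joined to it.

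The nucleolar chaperones and organisers had a median log2 change of 0.03 over 4 genes. NPM3 had the largest log2 change of the members at the settings of the report. It did not have it without PBS library B or without ketotifen library A. Nor did it after quantile normalization or a length and GC correction. Its levels were 160.4 and 145 FPKM in ketotifen libraries, against 134 and 113 FPKM in PBS libraries. The log2 change was 0.31 ± 0.09 (SE; 95% interval 0.11 to 0.51), with a limma adjusted p of 0.137 and a voom adjusted p of 0.0112. The PBS libraries differed from each other by nearly as much (0.25 lower in library B), and without PBS library B the change was 0.19. NPM3 lies on chromosome 10 (101781325 to 101783413, minus strand), with no annotated exon of another gene over it.

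NPM1 and NCL stood apart from NPM3. NPM1, the abundant nucleophosmin that shuttles assembly factors and ribosomal proteins, had 1018 and 1008 FPKM in ketotifen libraries, and 961 and 997 FPKM in PBS libraries. Both ketotifen libraries were higher, by a log2 change of 0.05 ± 0.06 (SE; 95% interval -0.08 to 0.18; limma adjusted p = 0.641, voom adjusted p = 0.513). It was -0.08 after quantile normalization, so no direction is given for it. NPM1 has 45 named pseudogenes, so its value may hold or lack reads of near-identical copies. NCL, nucleolin, an RNA-binding protein of the precursor, had 496 and 499 FPKM in ketotifen libraries, and 483 and 520.0 FPKM in PBS libraries. NOLC1, a scaffold that binds snoRNPs, had 103 and 106 FPKM in ketotifen libraries, and 101 and 107 FPKM in PBS libraries. In both of these the ketotifen values lay inside the PBS range. The ratio of NPM3 to NPM1 levels was 0.158 and 0.144 in ketotifen libraries, and 0.139 and 0.113 in PBS libraries.

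The 4 box C/D snoRNP genes were all positive, at a median log2 change of 0.10. NOP56, a core protein that bridges the methyltransferase to the snoRNA, had 211 and 215 FPKM in ketotifen libraries, against 192 and 191 FPKM in PBS libraries. The groups were separated by several times the difference within either. Its log2 change was 0.15 ± 0.05 (SE; 95% interval 0.04 to 0.27), with a limma adjusted p of 0.168 and a voom adjusted p of 0.0556. FBL, fibrillarin, the methyltransferase itself, had 298 and 298 FPKM in ketotifen libraries, against 291 and 283 FPKM in PBS libraries. Its log2 change was 0.06 ± 0.05 (SE; 95% interval -0.06 to 0.17; limma adjusted p = 0.562, voom adjusted p = 0.526), and it was negative, at -0.07, after quantile normalization. NOP58, the partner of NOP56, had 70.6 and 67.0 FPKM in ketotifen libraries, and 69.3 and 66.0 FPKM in PBS libraries, and these overlapped.

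RRP9, which binds the snoRNA needed for the first cuts in the precursor, had 52.4 and 55.4 FPKM in ketotifen libraries, and 50.6 and 43.1 FPKM in PBS libraries. PBS library B was the low one of the 4, and PBS library A lay close to the ketotifen libraries. The log2 change of 0.20 (limma adjusted p = 0.207, voom adjusted p = 0.0862) was 0.09 without PBS library B. Within the complex, the ratio of NOP56 to NOP58 levels was 2.98 and 3.22 in ketotifen libraries, and 2.77 and 2.90 in PBS libraries. That of FBL to NOP58 was 4.22 and 4.45 in ketotifen libraries, and 4.19 and 4.29 in PBS libraries.

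In the box H/ACA snoRNP, 3 of the 4 genes were positive and NOP10 was not, with a median log2 change of 0.13. DKC1, dyskerin, the pseudouridine synthase, had 71.8 and 73.5 FPKM in ketotifen libraries, against 67.2 and 64.9 FPKM in PBS libraries. The groups did not overlap, and the log2 change was 0.14 ± 0.05 (SE; 95% interval 0.02 to 0.25; limma adjusted p = 0.206, voom adjusted p = 0.122). NOP10, a small protein that sits on dyskerin's catalytic domain, had 237 and 253 FPKM in ketotifen libraries, against 254 and 267 FPKM in PBS libraries. It is 1 of the 2 members lower in both ketotifen libraries, although ketotifen library B and PBS library A nearly touch. Its log2 change was -0.09 ± 0.06 (SE; 95% interval -0.22 to 0.04), with a limma adjusted p of 0.418 and a voom adjusted p of 0.379.

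NHP2, another core protein, had 213 and 203 FPKM in ketotifen libraries, and 196 and 184 FPKM in PBS libraries (log2 change 0.13, limma adjusted p = 0.253). GAR1, which completes the active particle, had 33.8 and 31.4 FPKM in ketotifen libraries, and 28 and 31.7 FPKM in PBS libraries. NHP2 separated the groups and GAR1 did not, and the log2 change of GAR1 was 0.04 with PBS library A left out and 0.22 with PBS library B left out. The ratio of NOP10 to DKC1 levels was 3.30 and 3.44 in ketotifen libraries, and 3.78 and 4.11 in PBS libraries, without overlap. Other ratios, such as NOP56 to NOP58 and NPM3 to NPM1, did not overlap either, and no ratio was tested. The ratio of NHP2 to DKC1 was 2.96 and 2.76 in ketotifen libraries, and 2.92 and 2.83 in PBS libraries, and that of GAR1 to DKC1 was 0.471 and 0.428 in ketotifen libraries, and 0.416 and 0.488 in PBS libraries, both overlapping.

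**Figure D3:**
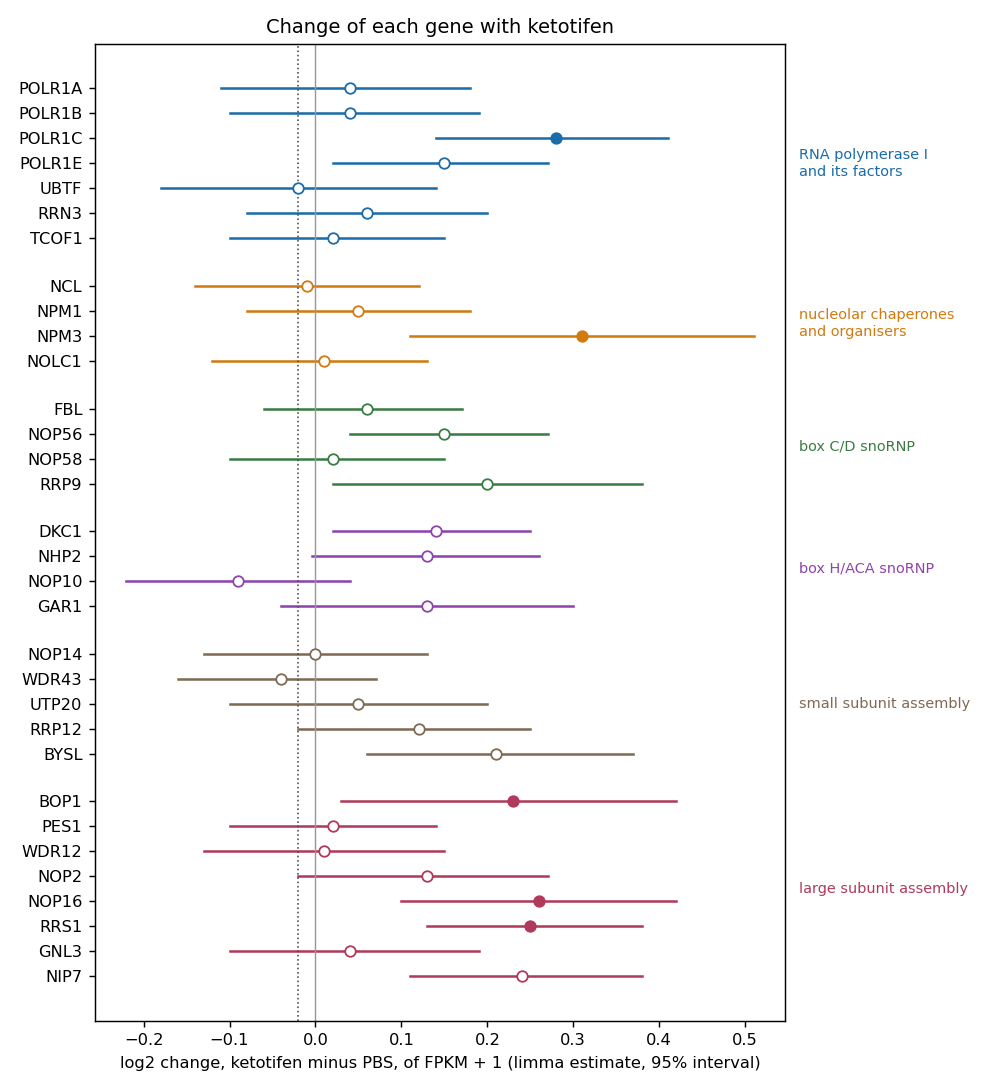
The limma log2 change of each gene, ketotifen minus PBS, on the log2(FPKM + 1) scale, with its 95% interval, coloured by role. Filled points passed with voom on recovered reads at an adjusted p under 0.05, and the dotted line is the median of all tested genes at -0.02. The interval lies above 0 in 11 genes and holds 0 in 21.

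The 5 small subunit assembly genes had a median log2 change of 0.05. BYSL, bystin, needed for the last steps of small subunit maturation, had 35.4 and 35.7 FPKM in ketotifen libraries, against 32.4 and 28.7 FPKM in PBS libraries. Both ketotifen values were nearly equal, and the PBS libraries differed by 0.17 on the log2 scale. Its log2 change was 0.21 ± 0.07 (SE; 95% interval 0.06 to 0.37; limma adjusted p = 0.159, voom adjusted p = 0.0755), and 0.13 without PBS library B. NOP14, a structural protein of the early small subunit particle and the most abundant of the 5, had 51.5 and 50.9 FPKM in ketotifen libraries, and 49.8 and 52.7 FPKM in PBS libraries. Its groups overlapped fully, with a log2 change of -8e-05 ± 0.05 (SE; 95% interval -0.13 to 0.13; limma adjusted p = 0.999, voom adjusted p = 0.999).

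WDR43, a subunit of the complex that couples polymerase I transcription to processing, had 43.6 and 44 FPKM in ketotifen libraries, and 45.2 and 45.1 FPKM in PBS libraries. The libraries of each group were almost identical, so the groups separate at a log2 change of only -0.04 (limma adjusted p = 0.662). RRP12, a nuclear export factor of the subunits, had 24.4 and 23.4 FPKM in ketotifen libraries, and 22.6 and 21.4 FPKM in PBS libraries. UTP20, a large scaffold of the early particle, had 9.48 and 9.92 FPKM in ketotifen libraries, and 9.52 and 9.11 FPKM in PBS libraries. RRP12 was higher in both ketotifen libraries, at a log2 change of 0.12, and UTP20 overlapped.

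The large subunit assembly genes had the highest median log2 change of the 6 roles, 0.18 over 8 genes, and all 8 were positive. RRS1, which helps dock the small ribosomal RNA of the large subunit, had 74.0 and 78.1 FPKM in ketotifen libraries, against 64.3 and 62.8 FPKM in PBS libraries. The log2 change was 0.25 ± 0.05 (SE; 95% interval 0.13 to 0.38), with a limma adjusted p of 0.10 and a voom adjusted p of 0.0112. NOP16, an early large subunit factor, had 92.9 and 88.5 FPKM in ketotifen libraries, against 80.3 and 70.7 FPKM in PBS libraries. The log2 change was 0.26 ± 0.07 (SE; 95% interval 0.10 to 0.42), with a limma adjusted p of 0.122 and a voom adjusted p of 0.0229. RRS1 libraries differed little within groups, while in NOP16 PBS library B was lower than PBS library A by 0.18 and the change was 0.17 without it.

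NOP16 lies on chromosome 5 (176383938 to 176388975, minus strand) and shares exon sequence with HIGD2A and ARL10 on the other strand. HIGD2A, a mitochondrial respiratory factor, was at 127 and 123 FPKM in ketotifen libraries, and 112 and 106 FPKM in PBS libraries (log2 change 0.20, limma adjusted p = 0.136). Reads of this pair cannot be told apart without strand, and the pair moved in the same direction. The part that shared reads play in the value of NOP16 was not tested.

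BOP1, PES1 and WDR12 form the PeBoW complex, needed for maturation of the large subunit RNA. BOP1 had 99.2 and 100.2 FPKM in ketotifen libraries, against 93.6 and 77.4 FPKM in PBS libraries. Its log2 change was 0.23 ± 0.08 (SE; 95% interval 0.03 to 0.42), with a limma adjusted p of 0.199 and a voom adjusted p of 0.0374. The PBS libraries differed from each other by more than the groups did, 0.27 lower in library B, and the change was 0.09 without PBS library B. PES1 had 34.3 and 33.6 FPKM in ketotifen libraries, and 33.4 and 33.5 FPKM in PBS libraries. WDR12 had 12.4 and 12.9 FPKM in ketotifen libraries, and 12.5 and 12.7 FPKM in PBS libraries. Neither partner changed by more than 0.02, and PES1 counts among the 17 non-overlapping members at a difference of 0.02. The ratio of BOP1 to PES1 levels was 2.89 and 2.98 in ketotifen libraries, and 2.80 and 2.31 in PBS libraries, and PBS library B was the one that stood apart.

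NIP7, a precursor processing factor listed here with the large subunit, had 16.3 and 16.5 FPKM in ketotifen libraries, and 13.9 and 13.5 FPKM in PBS libraries. The groups were well separated in this lowly expressed gene, with a log2 change of 0.24 (95% interval 0.11 to 0.38, limma adjusted p = 0.110, voom adjusted p = 0.0729). Its exons overlap COG8 on the other strand, which was at 7.61 and 7.61 FPKM in ketotifen libraries, and 7.96 and 8.19 FPKM in PBS libraries, the opposite direction. GNL3, nucleostemin, a nucleolar GTPase of proliferating cells and the most abundant of the 8, had 106 and 116 FPKM in ketotifen libraries, and 104 and 111 FPKM in PBS libraries. Library B was the higher in both groups, and the log2 change was 0.04 ± 0.06 (SE; 95% interval -0.10 to 0.19; limma adjusted p = 0.712, voom adjusted p = 0.682). It was -0.01 after quantile normalization. NOP2, a cytosine methyltransferase of the large subunit RNA, had 39.4 and 40.4 FPKM in ketotifen libraries, and 34.6 and 38.3 FPKM in PBS libraries, at a log2 change of 0.13 (limma adjusted p = 0.295). PBS library A was the lowest of its 4 values, and the change was 0.06 with PBS library A left out and 0.20 with PBS library B left out.

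The differences are small by any measure. The 95% interval of the log2 change lay above 0 in 11 members, below 0 in none (0 of 32) and held 0 in 21, and in 24 it stayed within -0.3 to 0.3. In 15 of the 32 members the change between groups was larger than the difference between the PBS libraries. The share over all tested genes was not computed for this count. PBS library B was below PBS library A in 19 members and above it in 13. RRS1, POLR1C, NIP7, NOP56 and DKC1 are among those in which the PBS libraries lay within 0.05 of each other. In BOP1, NPM3, RRP9, NOP16 and BYSL they were 0.17 to 0.27 apart, with library B the lower.

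The calls depended on which PBS library was kept. Without PBS library A, so that PBS library B stood alone, limma called 11 members (34.4%), all higher, where 10% of all tested genes were called higher. These were POLR1C, NPM3, NOP56, RRP9, DKC1, NHP2, BYSL, BOP1, NOP16, RRS1 and NIP7. Without PBS library B it called 2 members, POLR1C and RRS1 (6.25%), where 2.4% of all were called higher. Without ketotifen library A or B it called 0 members, where 0.0472% and 0.0283% of all were called higher. At an unadjusted p under 0.05 limma then had 6 members higher without ketotifen library A (5.31% of all tested genes) and 5 without ketotifen library B (6.14% of all). The 11 members at an unadjusted p under 0.05 in the full comparison did not overlap between groups. Their change is therefore positive with any 1 library left out, which is no separate evidence. A group left with 1 library is assumed to vary like the other group.

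Voom on recovered reads gave like counts. Without PBS library A it called 11 members higher (8.9% of all tested genes higher), without PBS library B it called NOP56 and RRS1 (1.81%), without ketotifen library A 0 members (0.661%; at an unadjusted p under 0.05, 8 members higher and 5.09% of all) and without ketotifen library B NPM3 alone (1.21%). RRS1 was the only member that both methods called with either PBS library left out, at a limma log2 change of 0.27 where PBS library A was left out and 0.24 where B was. POLR1C had 0.28 in both of these limma fits.

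**Figure D4:**
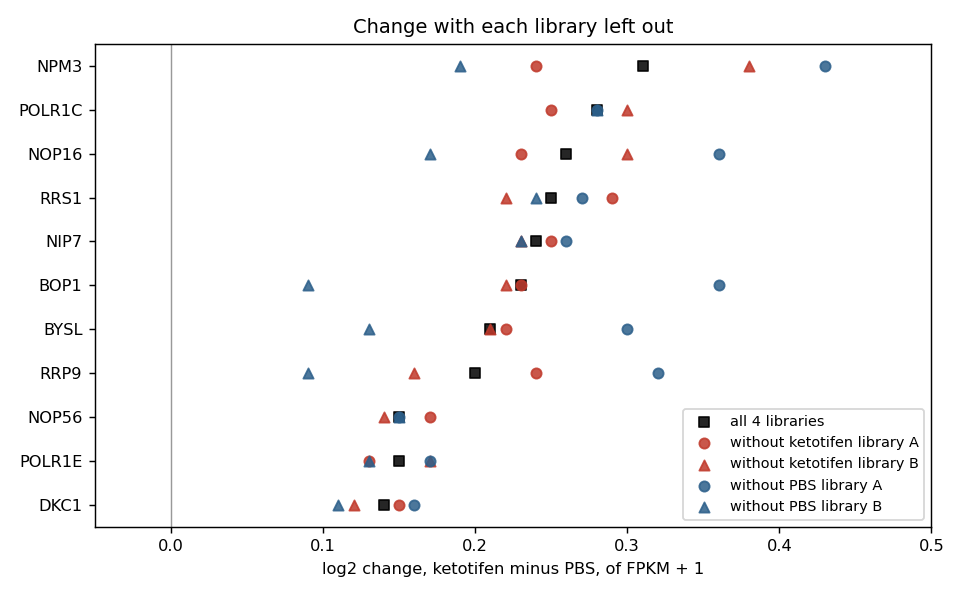
The limma log2 change (ketotifen minus PBS, log2(FPKM + 1) scale) of the 11 genes at an unadjusted p under 0.05, from all 4 libraries (black squares) and with each library left out (coloured points). BOP1 ranges from 0.09 without PBS library B to 0.36 without PBS library A, whereas POLR1C stays between 0.25 and 0.30.

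Gene length moved with the change, in the members and in the whole table. The members' median log2 change was 0.20 for the 4 with a length under 1000 bases, 0.15 for the 8 from 1000 to 2000, 0.06 for the 12 from 2000 to 4000, 0.02 for the 4 from 4000 to 8000 and 0.04 for the 4 from 8000 bases up. Over all tested genes the medians in the same bins were 0.13, 0.05, 0.004, -0.04 and -0.08, so the members' median was the higher in each bin. After a correction for length and GC content the members' median was 0.09, with all tested genes at 0.0027. The correction moved the shortest members most. NPM3 (877 bases) went to 0.21, NOP16 (979 bases) to 0.17, NHP2 (780 bases) to 0.01 and NOP10 (507 bases) to -0.24, whereas POLR1C (2455 bases) had 0.26 and BOP1 (2428 bases) 0.22. FBL (1112 bases) turned to -0.03. The part of transcript length in these values was not tested further.

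Of the members, 6 are hosts of snoRNA genes, which lie in introns and guide modification of ribosomal and spliceosomal RNA. GNL3 holds 6 of them, NOP56 5, NOP58 4, NCL 3, WDR43 3 and DKC1 2, or 23 in all in the GENCODE 29 annotation. The host messenger RNAs had log2 changes from -0.04 (WDR43) to 0.15 (NOP56). Of the 6, NOP56 and DKC1 were higher in both ketotifen libraries, which held for 23.2% of all tested genes. Levels of the snoRNAs were not analysed here. Exons of 10 members are overlapped by a gene on the other strand, among them NOP16, POLR1C, NIP7, GNL3 and NHP2, and the values of these are uncertain to that extent. For GNL3 the partner GLT8D1 was at 13.9 and 11.1 FPKM in ketotifen libraries, and 12.2 and 10.7 FPKM in PBS libraries, far below GNL3 itself. For NHP2 the partner RMND5B was at 14.4 and 15.0 FPKM in ketotifen libraries, and 15.3 and 14.1 FPKM in PBS libraries.

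Other genes of the pathway, 166 of 170 listed that passed the filter, had a median log2 change of 0.03. Of these, 97 were positive and 69 negative, where 44.3% of all tested genes were positive. By limma 0 passed an adjusted p under 0.05, with 33 higher and 5 lower at an unadjusted p under 0.05. At that unadjusted p, 10% of all tested genes were higher and 10.3% lower. With voom 15 passed, 14 higher and 1 lower, against 3.69% and 3.84% of all. Both ketotifen libraries were above both PBS libraries in 68 and below in 25, against 23.2% and 31.2% of all. By list, voom called 2 of 15 other RNA polymerase I subunits and SL1 factors, 5 of 43 other small subunit factors and 6 of 52 other large subunit factors, the last including the gene that was lower. It called 1 of 24 pre-rRNA nucleases and exosome subunits, 1 of 20 RNA polymerase III genes and 0 of 12 snoRNP assembly factors, which by limma had 1 higher and 1 lower at an unadjusted p under 0.05.

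Voom called 3 small polymerase subunits. POLR2L, common to all 3 nuclear polymerases, had 210.3 and 200.5 FPKM in ketotifen libraries, against 184 and 142 FPKM in PBS libraries (voom adjusted p = 0.0166). POLR2F, also common to all 3, had 18.8 and 18.7 FPKM in ketotifen libraries, against 16.0 and 14.6 FPKM in PBS libraries (voom adjusted p = 0.0185). POLR3K, a small subunit of RNA polymerase III, had 61.5 and 62.7 FPKM in ketotifen libraries, against 52.5 and 38.1 FPKM in PBS libraries (voom adjusted p = 0.0043). All were higher in both ketotifen libraries, and PBS library B was the lowest of the 4 in each. Their log2 changes were 0.34, 0.28 and 0.47 with all libraries, and 0.15, 0.21 and 0.24 without PBS library B.

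Among assembly factors, WDR46 of the small subunit particle had 21.6 and 21.1 FPKM in ketotifen libraries, against 18.6 and 16.1 FPKM in PBS libraries (log2 change 0.28). DHX37, the helicase that releases a snoRNA from the early small subunit, had 20.9 and 21.3 FPKM in ketotifen libraries, against 18 and 17.8 FPKM in PBS libraries (0.22). RRP7A had 18.4 and 17.1 FPKM in ketotifen libraries, against 15.6 and 14.1 FPKM in PBS libraries (0.24). The PBS libraries of DHX37 were nearly equal, while WDR46 was lower in PBS library B. EIF6, which keeps the new large subunit from joining the small one too early, had 109.9 and 109 FPKM in ketotifen libraries, against 95.3 and 80.4 FPKM in PBS libraries (log2 change 0.32, and 0.20 without PBS library B, voom adjusted p = 0.00673). ZNF622, a late large subunit factor, had 24.7 and 24.7 FPKM in ketotifen libraries, against 20.4 and 19.7 FPKM in PBS libraries (log2 change 0.29, limma adjusted p = 0.0968, voom adjusted p = 0.0274). WDR74 had 47.9 and 49.8 FPKM in ketotifen libraries, against 42.6 and 41.1 FPKM in PBS libraries (log2 change 0.22). In ZNF622 the libraries of each group lay close together.

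EXOSC7, a subunit of the RNA exosome that trims ribosomal RNA ends, had 38.8 and 36.6 FPKM in ketotifen libraries, against 33.1 and 25.1 FPKM in PBS libraries (log2 change 0.37), and 0.18 without PBS library B. GNL3L, the paralog of GNL3, was the pathway gene that voom called lower, with 10.2 and 9.79 FPKM in ketotifen libraries, against 12.1 and 11.1 FPKM in PBS libraries (log2 change -0.20, limma adjusted p = 0.176, voom adjusted p = 0.0464). It was singled out after its value was seen. GNL3 and GNL3L thus lay on different sides of 0, although the difference between them was not tested.

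Set beside ribosomal protein genes, the members' median log2 change of 0.06 compares with 0.19 over 78 tested cytosolic and 0.05 over 76 tested mitochondrial ones. The mitochondrial list is for comparison only. Of the cytosolic ribosomal protein genes 70 were positive, and voom called 46 higher and 0 lower, where limma called 0 and had 52 higher and 0 lower at an unadjusted p under 0.05. Of the mitochondrial ones voom called 10 higher. Over all tested genes 44.3% were positive, and voom called 3.69% higher and 3.84% lower. At an unadjusted limma p under 0.05 the shares over all tested genes were 10% higher and 10.3% lower. These lists differ from the members in length and in the PBS libraries. Median length was 2441 bases for the members, against 1063 for cytosolic and 1448 for mitochondrial ribosomal protein genes. PBS library B minus PBS library A had a median log2 difference of -0.04 in the members, -0.15 in cytosolic and -0.07 in mitochondrial ribosomal protein genes. Without PBS library B the median change was 0.08 for the members, 0.11 for the cytosolic and 0.02 for the mitochondrial list. After the length and GC correction it was 0.09 for the members, 0.12 for the cytosolic and 0.0031 for the mitochondrial list. The difference between the lists was not tested.

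**Figure D5:**
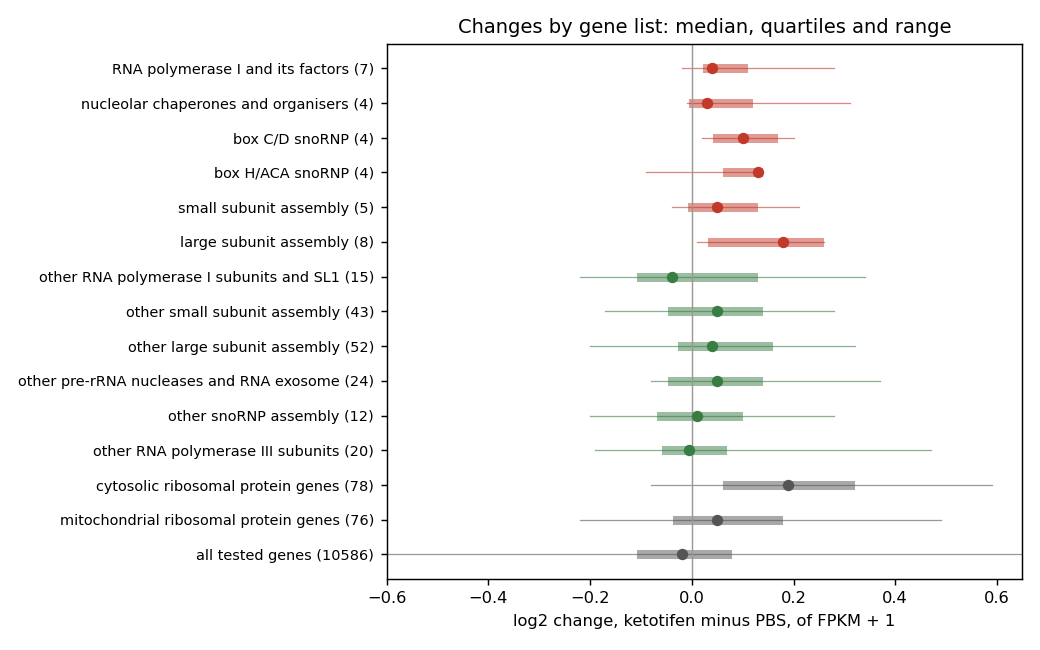
Points are the median log2 change (ketotifen minus PBS, log2(FPKM + 1) scale), thick bars the quartiles and thin lines the range, for the 6 roles of the members (red), other pathway lists (green) and ribosomal protein genes and all tested genes (grey), with the number of tested genes in brackets. The thin line of all tested genes is clipped by the axis. Large subunit assembly, at 0.18, and cytosolic ribosomal protein genes, at 0.19, have the highest medians, and all tested genes sit at -0.02.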

How the data were processed

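Gene expression was measured by RNA sequencing in 4 libraries. TRIzol RNA, a strand-specific mRNA library kit and paired reads of 150 bases were used, per the labels' protocols. Of tools, fastp, HISAT2 and HTSeq are listed in the submitters' processing notes, with build GRCh38. Tool versions, annotation and strand setting: not given in the sources used here. The deposited values are the authors' FPKM per gene and library. Columns carry the letters A and B, which were not matched to the labels' replicate numbers.

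From these values, log2(FPKM + 1) was tested with limma 3.58.1 in R 4.3.3 with an intensity trend, for the 10586 genes whose mean reached 1 FPKM. Tests were two-sided, with Benjamini-Hochberg adjustment over all tested genes and a threshold of 0.05. Fold changes on this scale understate those of low genes. The FPKM of a gene are multiples of a step worth 1 read, and whole reads were recovered for 100% of tested genes (within 1e-05 reads after allowing for printed digits) and for 0 of 500 decoys, in Python 3.11.15. Voom was run on these inferred reads as an alternative. In simulated data 96.7% of 2087 genes got their true reads back. Of 50 planted log2 changes of 0.3, limma found 44% and voom 50% at an adjusted p under 0.05. Of 49 planted changes of 0.5 they found 87.8% and 91.8%. False calls were 10 and 7 among 10360 unchanged genes. Precision rests on 2 libraries a group.

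Members described in full are those called by limma or voom and, per role, the one with the smallest limma p and the most abundant. Of other pathway genes up to 3 voom calls per list are named. The members and lists were chosen with earlier results of these data known. Alternatives were other pseudocounts (0.1 and 5), filters, scalings, left-out libraries, a block by letter, voom and, added after seeing the data, a length and GC correction (98% of tested genes), its combination with the block, voom with median ratio scaling and voom with each library left out. Coordinates are from GENCODE 29. Some markers are not reported here.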

Additional observations from a re-analysis of the deposited data

How the results depend on the processing

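Of 224 recomputed changes of the 14 members described in full, none of which passed the threshold at the settings of the report, 176 kept direction and side of it, 29 passed it and 19 changed sign. With median ratio scaling UBTF was 0.00074 and NOP14 0.02, and with voom so scaled NOP14 was 0.02. An equal FPKM sum, which lowers all genes together, gave -0.0028 for NPM1 and -0.01 for GNL3. Quantile normalization gave -0.08 for NPM1, -0.07 for FBL and -0.01 for GNL3. The length and GC correction gave 0.01 for UBTF, -0.03 for FBL and 0.01 for NOP14, without and with the replicate block. With a library left out, UBTF ranged from -0.09 to 0.05 (0.05 without PBS library B, 0.04 without ketotifen library A), NOP14 from -0.04 to 0.04 (0.01 in the fit that lacked ketotifen library B) and GNL3 from -0.02, in that same fit, to 0.11.

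Genes called by limma were 13 at the settings of the report (1 higher and 12 lower), 0 with no filter (2295 at an unadjusted p under 0.05), 27 at a mean of at least 5 FPKM, 3 with median ratio scaling or quantile normalization (1 higher and 2 lower in each), and 10 to 1936 with a library left out. Voom called 797, and 684 with median ratio scaling (428 higher and 256 lower). Members called were 0 by limma (11 at an unadjusted p under 0.05), 5 by voom, 6 by voom with median ratio scaling, and 0 to 11 with a library left out, by limma and by voom alike. Other pathway genes called were 0 by limma, 15 by voom, 14 by voom with median ratio scaling and 0 to 38 with a library left out. Members lower without overlap were 2, with 1 by median ratio scaling and 4 by quantile normalization. Those higher were 17, with 13 by an equal FPKM sum, 14 by quantile normalization and 21 by median ratio scaling. With a library left out 2 to 6 were lower and 19 to 23 higher, but 2 libraries against 1 separate more easily. The shares over all tested genes, 31.2% lower and 23.2% higher, were computed only at the settings of the report. The members' median of 0.06 was 0.08 with median ratio scaling (with limma or voom), 0.01 with an equal FPKM sum, which also moves the median of all tested genes to -0.06, 0.09 after the length and GC correction and 0.06 to 0.08 with a library left out. The cause of these differences was not tested.

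The letters were not taken to pair the libraries: the difference between B and A correlated at 0.10 between groups over tested genes and at 0.30 over the members, across genes, and 2 pairs are too few to show pairing. With the letter as a replicate block 637 genes were called, among them 5 members (POLR1C, NPM3, NOP16, RRS1 and NIP7, all higher, where 3.84% of all genes were called higher) and 12 other pathway genes. With the block and the length and GC correction together these were 507, 4 (POLR1C, NPM3 and RRS1 higher, NOP10 lower) and 10. In that fit 9.38% of the members and 2.52% of 10374 genes were called higher. The share of genes called lower was not computed. The members' median was 0.09.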
